A study of Mus musculus with 12 samples.

Results

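The proteasome subunit genes were described in the livers of male C57BL6J mice, an inbred laboratory strain, across a low-dose penicillin treatment and a high-fat diet. A gene was taken as a member if its probe set carried a single symbol formed of Psma, Psmb, Psmc, Psmd or Psme and a digit, which gave 44 of the 18193 genes with 1 symbol on the array, and each gene was read from its probe set with the highest mean. The members comprised 7 alpha and 7 beta subunits of the core particle, 6 ATPases and 11 non-ATPase subunits of the regulatory particle, 3 chaperones that assemble its base (Psmd5, Psmd9 and Psmd10), 3 activators (Psme1, Psme3 and Psme4) and the 3 immunoproteasome subunits Psmb8, Psmb9 and Psmb10. The other 4 were the germ line subunit Psma8, the thymus subunit Psmb11, and Psmc3ip and Psme3ip1, which match the naming rule but encode partners of other proteins and not subunits. Of the 44 genes, 43 lay above the filter on dim genes and were tested, and Psmb11, with a mean log2 level of 4.54, fell below it. The 37 alpha, beta, ATPase, non-ATPase, chaperone and activator genes are called constitutive members below. Psme2 was not analysed here because its probe set carries the symbols of more than 1 gene.

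Each of 12 livers, collected at 30 weeks of age, was hybridised to 1 array, with 3 mice in each of 4 groups. Penicillin high-fat mice drank water with 6.7 mg/L penicillin and ate a diet with 45% of its energy as fat after a switch at 17 weeks, and control high-fat mice ate the same diet without the antibiotic. Penicillin chow mice drank the same dose and stayed on chow with 13.5% of its energy as fat, and control chow mice had neither exposure. All mice ate chow before the switch. Values are RMA expression on a log2 scale, on which a difference of 1 is a doubling. Because RMA brings the arrays to a similar distribution of values, a difference is measured against the other genes on the array.

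The proteasome is the protease that degrades proteins tagged with ubiquitin. Its barrel-shaped core, the 20S particle, is built of alpha rings that gate the entry and beta rings that hold the proteolytic sites. Its cap, the 19S particle, binds the ubiquitin chain, removes it, and uses ATPases to unfold the substrate. In cells exposed to interferon gamma, Psmb8, Psmb9 and Psmb10 replace the catalytic subunits Psmb5, Psmb6 and Psmb7, and the resulting immunoproteasome supplies peptides for presentation on MHC class I molecules. The transcription factor Nfe2l1, also called NRF1, raises the transcription of proteasome genes when proteasome activity is too low.

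The tissue label was borne out by hepatocyte genes, with Alb, the gene of albumin, between 15.002 and 15.029 on average in the 4 groups. Array medians lay between 5.52 and 5.59, and the correlation between arrays of a group, over the 13788 genes tested, was 0.985 to 0.995. The mean of 3 control probe sets for 18S ribosomal RNA stood apart on 3 arrays. It was 11.81 on penicillin high-fat 2, 11.76 on penicillin chow 2 and 11.77 on penicillin chow 3, against 12.67 to 13.87 on the other 9. All 3 are penicillin arrays, and leaving them out leaves 1 penicillin chow mouse, 2 penicillin high-fat mice and all control mice, so that the lone mouse is taken to vary like the other groups. Values from the 9 remaining arrays are given beside the main results.

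High-fat diet, averaged over both treatments, raised 3 of the 43 members and lowered 0 at an adjusted p under 0.05 (limma, Benjamini-Hochberg over 13788 genes). The 3 were the base chaperone Psmd10, the alpha subunit Psma3 and the immunoproteasome subunit Psmb8, and their differences ranged from 1.12-fold to 1.27-fold. Over all genes tested, the same contrast called 9.63% higher and 4.85% lower, beside a share of 6.98% higher among the members. At an unadjusted p under 0.05, 10 members were higher and 3 lower, beside 17.1% and 13% of all genes. The difference was above 0 for 25 of the 37 constitutive members, beside 47.7% of all genes, with a median of 0.03, beside -0.008 over all genes. After cyclic loess the members' median was -0.005, beside -0.004 over all genes, so that small shift was not seen under this scaling. After median centring, which moves all genes of an array alike, it was -0.003, beside -0.040 over all genes. Of the 37, 23 were above 0 on the 9 arrays, with a median of 0.02. For 42 of the 43 members, the 95% interval of the diet difference lay within 1.5-fold in either direction, and Psmb9 was the exception, beside 12406 of all 13788 genes tested. Member differences ran from -0.21 for Psmc4 to 0.39 for Psmb9. In whole liver, a change in the number of cells of a type and a change in RNA per cell cannot be told apart.

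Psmd10 encodes gankyrin, a chaperone that holds an ATPase of the 19S base during assembly and is released from the finished particle. Its log2 level was 8.32, 8.47 and 8.19 in the 3 penicillin high-fat livers and 8.39, 8.21 and 8.12 in the 3 control high-fat livers. On chow it was 8.02, 7.86 and 8.10 in penicillin mice and 7.996, 7.87 and 7.83 in control mice. The 6 high-fat livers all lay above the 6 chow livers, a separation that 4.35% of all genes showed in this direction and that 1 member of 43 showed. The averaged diet difference was 0.34 ± 0.07 (SE), or 1.27-fold, with a 95% interval of 0.18 to 0.50 and an adjusted p of 0.0101 (limma). It was 0.34 ± 0.10 within penicillin mice (adjusted p = 0.0630) and 0.34 ± 0.10 within control mice (adjusted p = 0.130), so neither diet contrast alone passed the threshold. Without the 3 arrays of low 18S signal the averaged difference was 0.29 and the adjusted p 0.0539, and in the other 23 alternative fits the call held.

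Psma3, an alpha ring subunit, had log2 levels of 12.78, 12.80 and 12.72 in penicillin high-fat livers and 12.69, 12.73 and 12.61 in control high-fat livers. The chow values were 12.61, 12.52 and 12.57 in penicillin mice and 12.57, 12.48 and 12.61 in control mice. The lowest high-fat liver was level with the highest chow liver, and the other 5 high-fat livers lay above all chow livers. The averaged difference was 0.16 ± 0.05, or 1.12-fold (95% interval 0.06 to 0.27, adjusted p = 0.0397 by limma). A second, much dimmer probe set of Psma3 gave 0.07 ± 0.08 in the same contrast. Without the arrays of low 18S signal the difference was 0.13 and the adjusted p 0.203, and the call held in 7 of 24 alternative fits.

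The promoter windows of Psmd10 and Psma3 are printed because these are the constitutive members that rose on high-fat diet. They are RefSeq windows of build GRCm38.p6, each 300 bases long, 250 before and 50 after a start of the gene, written 5′ to 3′ on the gene's strand, at chrX:140956662-140956961 (minus strand) for Psmd10 and at chr12:70974373-70974672 (plus strand) for Psma3. The Psma3 window lies inside the span that the gene table lists for the gene, which begins at position 70969283, so it is not at the outermost start. Capitals mark CCAAT on either strand, a common promoter element that the factor NF-Y binds.
Psmd10: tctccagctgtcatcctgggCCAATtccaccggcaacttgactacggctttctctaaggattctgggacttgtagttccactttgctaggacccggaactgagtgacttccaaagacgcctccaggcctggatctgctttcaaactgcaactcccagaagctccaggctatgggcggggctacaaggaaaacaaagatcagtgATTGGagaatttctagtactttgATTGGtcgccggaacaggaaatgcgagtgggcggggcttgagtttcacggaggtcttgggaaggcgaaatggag
Psma3: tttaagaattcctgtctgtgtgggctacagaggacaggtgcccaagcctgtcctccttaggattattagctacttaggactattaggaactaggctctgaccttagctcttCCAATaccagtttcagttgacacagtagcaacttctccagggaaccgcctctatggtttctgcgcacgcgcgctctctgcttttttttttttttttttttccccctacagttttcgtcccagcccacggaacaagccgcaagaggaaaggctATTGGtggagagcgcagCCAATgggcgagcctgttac
Each window held 3 copies of CCAAT and no copy of TGANNNNGC, the core of the antioxidant response element that NRF1 and NRF2 bind. Windows were found for 37 of the 44 members, 40 windows in all. CCAAT was in 36.4% of the 33 windows of constitutive members, beside 37.4% of all 32851 windows. TGANNNNGC, searched on both strands, was in 54.5% of the constitutive windows, beside 41.3% of all windows. Its narrower form TGACNNNGC was in 18.2%, beside 12.4%, and GAAANNGAA, the core of the interferon-stimulated response element, was in 18.2%, beside 8.56%. These are matches of letters and not sites.

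**Figure D1:**
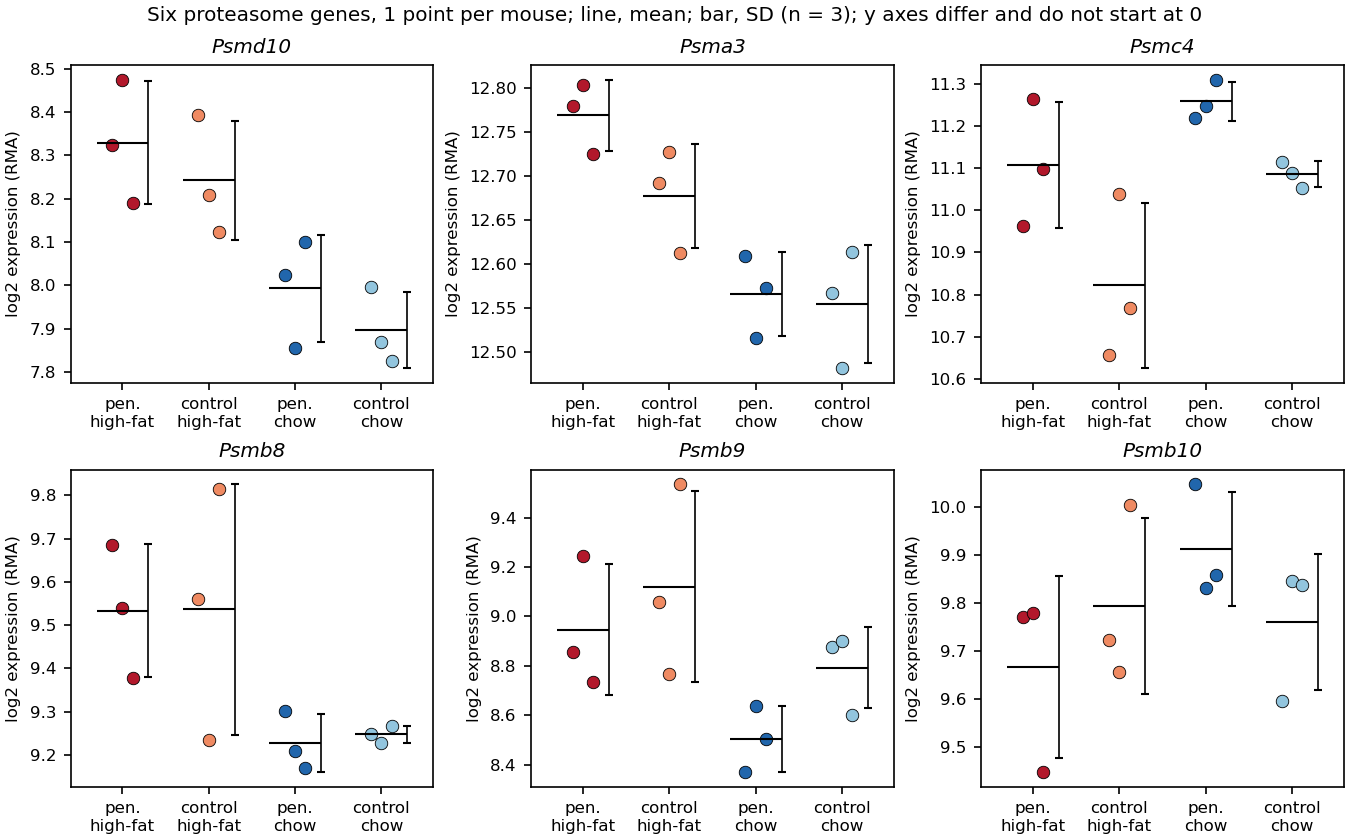
Log2 expression (RMA) of Psmd10, Psma3, Psmc4, Psmb8, Psmb9 and Psmb10 in the 4 groups (pen., penicillin), 1 point per mouse, with the group mean as a line and the SD as a bar (n = 3). The y axes differ and do not start at 0. The 6 high-fat livers are all above the 6 chow livers for Psmd10, and control high-fat 3 is the highest liver for Psmb8 at 9.81 and for Psmb9 at 9.54.

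The next members in order of p were not called. Psma6, an alpha subunit, differed by 0.17 ± 0.05 (adjusted p = 0.0540), Psmc1, a base ATPase, by 0.16 ± 0.06 (adjusted p = 0.0688) and Psmd9, a base chaperone, by 0.20 ± 0.07 (adjusted p = 0.0867). Psmc4, another base ATPase, was the member with the most negative diet difference, -0.21 ± 0.07 (adjusted p = 0.0773). Both Psmc4 and Psmd9 had further probe sets of the opposite sign. The second probe set of Psmc4 gave 0.05 ± 0.07, and a dimmer one of Psmd9 gave -0.21 ± 0.10. By role, the diet difference was above 0 for 6 of 7 alpha, 6 of 7 beta, 4 of 6 ATPase, 6 of 11 non-ATPase, 2 of 3 chaperone and 1 of 3 activator genes, with medians of 0.08, 0.03, 0.01, 0.03, 0.20 and -0.05.

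**Figure D2:**
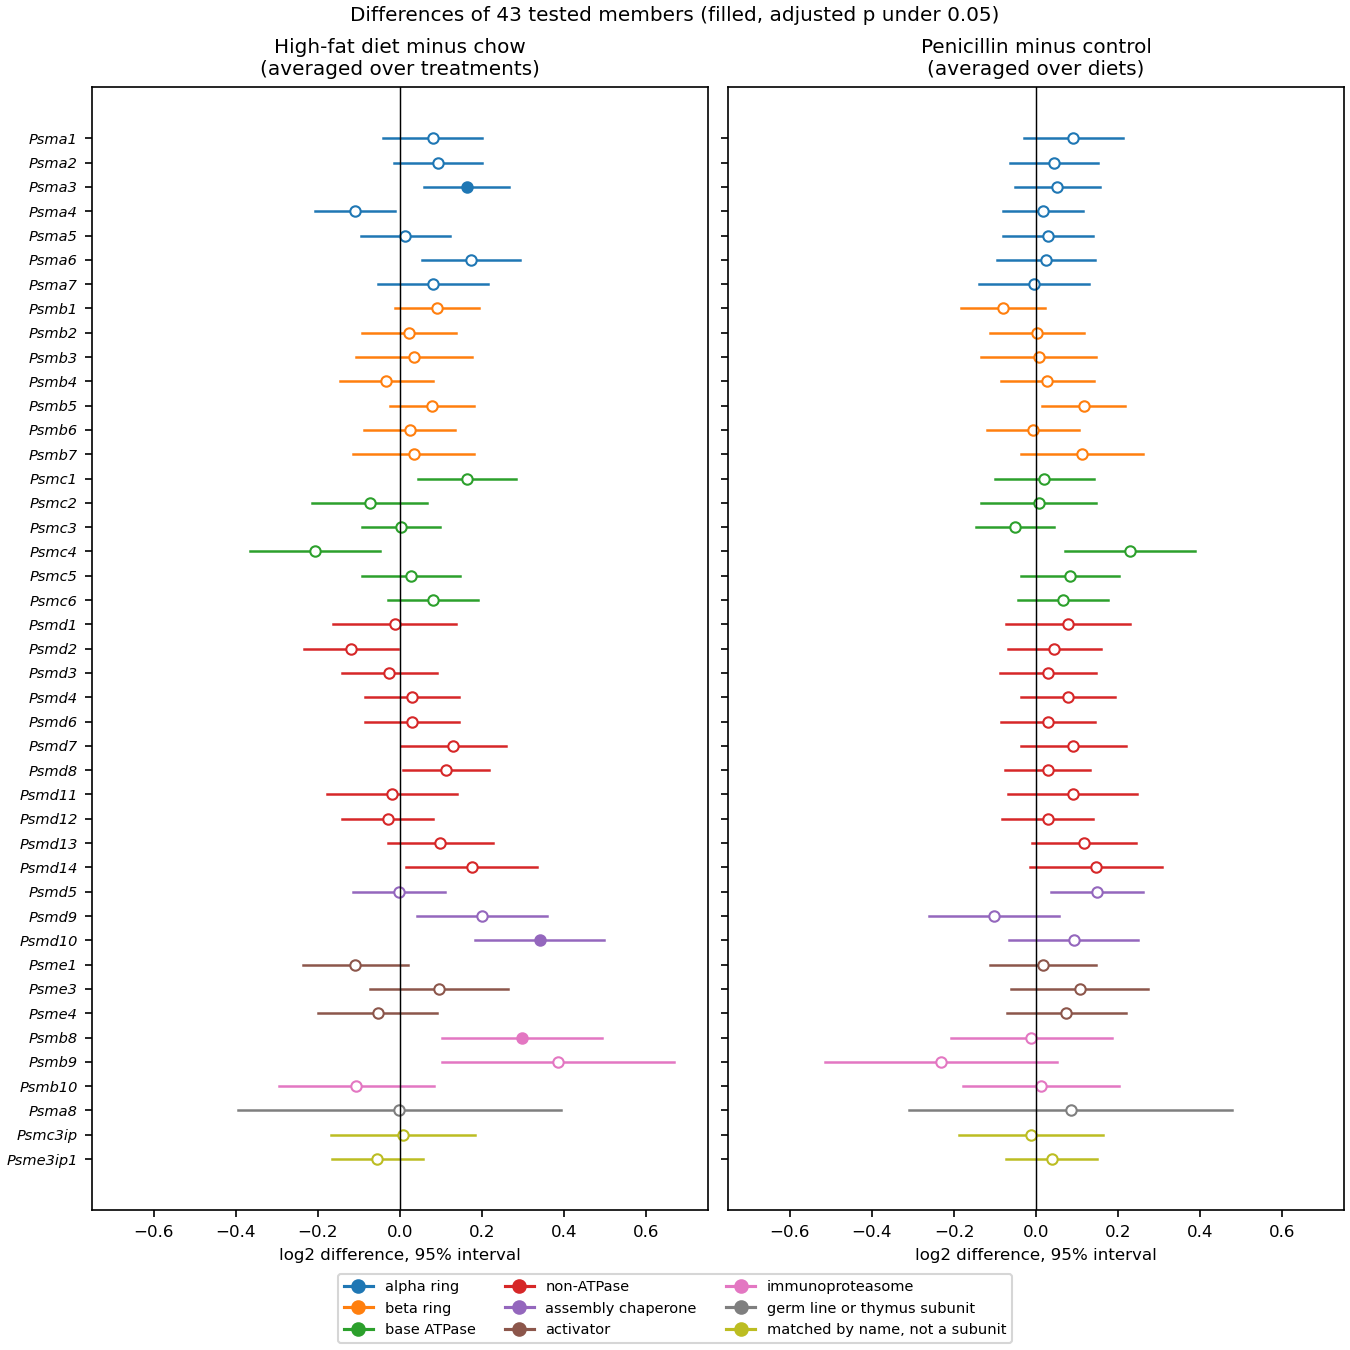
Log2 difference (point) with its 95% interval (line) for each of the 43 tested members, coloured by role; left, high-fat diet minus chow averaged over treatments; right, penicillin minus control averaged over diets. Filled points passed an adjusted p of 0.05 and are Psmd10, Psma3 and Psmb8 on the left and none on the right, where 35 of 43 points lie above 0.

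Within control mice, high-fat diet called 0 of 43 members (limma; 0.899% of all genes were called), and at an unadjusted p under 0.05, 5 were higher and 1 lower, beside 8.51% and 6.59% of all genes. The 3 with the smallest p were Psmd10, Psmc1 and Psmc4. Psmc1 was 10.46, 10.51 and 10.32 in penicillin high-fat livers and 10.48, 10.55 and 10.31 in control high-fat livers. Its chow values were 10.31, 10.28 and 10.33 in penicillin mice and 10.22, 10.28 and 10.23 in control mice. Every control high-fat liver was above every control chow liver, by 0.20 ± 0.08 on average (adjusted p = 0.247 by limma). Psmc4 was 10.96, 11.26 and 11.10 in penicillin high-fat livers and 10.66, 11.04 and 10.77 in control high-fat livers. It was 11.22, 11.25 and 11.31 in penicillin chow livers and 11.12, 11.09 and 11.05 in control chow livers. The control high-fat livers lay below the control chow livers without overlap, by -0.26 ± 0.10 (adjusted p = 0.253 by limma). In this contrast 5 members were higher and 3 lower without overlap of the groups, beside 12.4% and 10.4% of all genes.

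Within penicillin mice, high-fat diet called 8.32% of all genes and 0 of 43 members (limma), and at an unadjusted p under 0.05, 6 members were higher and 0 lower, beside 15.3% and 9.23% of all genes. Psmd10 had the smallest p, followed by Psma3, which was higher by 0.20 ± 0.07 (adjusted p = 0.0853), and Psmb8, which was higher by 0.31 ± 0.13 (adjusted p = 0.161). The groups did not overlap for 11 members that were higher and 4 that were lower, beside 15.6% and 12.3% of all genes. Without the arrays of low 18S signal the differences were 0.23 ± 0.14 for Psmd10, 0.14 ± 0.11 for Psma3 and 0.23 ± 0.21 for Psmb8. Of the 43 members, 41 had a 95% interval within 1.5-fold in this contrast, beside 11260 of all 13788 genes tested. Psmb9 and Psma8 did not.

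The immunoproteasome subunits did not share one direction on high-fat diet. Psmb8, the subunit also called LMP7, was 9.68, 9.54 and 9.38 in penicillin high-fat livers and 9.56, 9.24 and 9.81 in control high-fat livers. On chow it was 9.30, 9.21 and 9.17 in penicillin mice and 9.25, 9.23 and 9.27 in control mice. The high-fat livers were more widely spread than the chow livers, and control high-fat 2 was the 1 high-fat liver among the chow values. Psmb8 rose by 0.30 ± 0.09, or 1.23-fold, in the averaged contrast (95% interval 0.10 to 0.49, adjusted p = 0.0456 by limma). Without the arrays of low 18S signal the difference was 0.26 and the adjusted p 0.221, and the call held in 7 of 24 alternative fits.

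Psmb9, also called LMP2, was 8.86, 9.24 and 8.74 in penicillin high-fat livers and 9.06, 8.77 and 9.54 in control high-fat livers. It was 8.37, 8.64 and 8.50 in penicillin chow livers and 8.88, 8.90 and 8.60 in control chow livers. Within each treatment the high-fat mean was the higher one, and among control mice the groups overlapped. The averaged diet difference was 0.39 ± 0.13, or 1.31-fold (95% interval 0.10 to 0.67), and did not pass the threshold (adjusted p = 0.0681 by limma), nor on the 9 arrays, where it was 0.38 ± 0.16 (adjusted p = 0.158). Psmb10, also called MECL-1, was 9.77, 9.78 and 9.45 in penicillin high-fat livers and 9.72, 9.66 and 10.004 in control high-fat livers. Its chow values were 10.05, 9.83 and 9.86 in penicillin mice and 9.60, 9.85 and 9.84 in control mice. Among penicillin mice the high-fat livers lay below the chow livers without overlap, by -0.25 ± 0.12 (adjusted p = 0.242), and among control mice the difference was 0.03 ± 0.12 (adjusted p = 0.938). The averaged diet difference of Psmb10 was -0.11 ± 0.09 (95% interval -0.30 to 0.08, adjusted p = 0.441).

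The constitutive counterparts moved little. Psmb5, the subunit that Psmb8 replaces, was 11.85, 11.79 and 11.85 in penicillin high-fat livers and 11.67, 11.71 and 11.63 in control high-fat livers. On chow it was 11.78, 11.66 and 11.68 in penicillin mice and 11.59, 11.62 and 11.70 in control mice. The averaged diet difference was 0.08 ± 0.05 (95% interval -0.02 to 0.18, adjusted p = 0.283 by limma). Psmb6, the counterpart of Psmb9, was 11.60, 11.50 and 11.63 in penicillin high-fat livers, 11.64, 11.66 and 11.50 in control high-fat livers, 11.60, 11.49 and 11.62 in penicillin chow livers and 11.52, 11.56 and 11.60 in control chow livers. The groups overlapped throughout, and the diet difference was 0.02 ± 0.05 (95% interval -0.09 to 0.14). Psmb7, the counterpart of Psmb10, was 10.17, 10.04 and 10.32 in penicillin high-fat livers, 10.06, 10.17 and 9.99 in control high-fat livers, 10.25, 9.9995 and 10.20 in penicillin chow livers and 10.01, 9.96 and 10.12 in control chow livers. These groups overlapped too, with a diet difference of 0.03 ± 0.07 (95% interval -0.11 to 0.18). Psme1, which encodes the alpha subunit of the interferon-inducible activator PA28, was 11.02, 11.06 and 10.81 in penicillin high-fat livers and 10.86, 10.92 and 10.89 in control high-fat livers. It was 10.90, 11.11 and 11.04 in penicillin chow livers and 11.003, 11.07 and 11.10 in control chow livers. Its diet difference was -0.11 ± 0.06 (95% interval -0.24 to 0.02, adjusted p = 0.240).

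The windows of Psmb8 and Psmb9, the immunoproteasome genes with the larger diet differences, and of Psmb5 are printed to set an inducible pair beside a constitutive counterpart. They lie at chr17:34197945-34198244 (plus strand), chr17:34187281-34187580 (minus strand) and chr14:54617946-54618245 (minus strand) of GRCm38.p6, so Psmb8 and Psmb9 stand near each other on opposite strands. Capitals mark TGANNNNGC on either strand.
Psmb8: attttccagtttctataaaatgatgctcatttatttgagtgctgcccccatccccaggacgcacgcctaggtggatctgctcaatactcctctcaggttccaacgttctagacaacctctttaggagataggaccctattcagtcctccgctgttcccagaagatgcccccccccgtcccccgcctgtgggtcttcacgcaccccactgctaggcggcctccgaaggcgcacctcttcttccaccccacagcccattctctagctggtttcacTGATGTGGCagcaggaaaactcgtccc
Psmb9: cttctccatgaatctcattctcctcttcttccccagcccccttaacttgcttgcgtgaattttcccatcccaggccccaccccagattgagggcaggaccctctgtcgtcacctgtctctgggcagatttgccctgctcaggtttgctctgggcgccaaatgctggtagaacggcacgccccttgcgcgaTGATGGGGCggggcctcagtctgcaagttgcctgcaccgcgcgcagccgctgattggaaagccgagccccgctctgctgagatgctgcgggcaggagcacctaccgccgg
Psmb5: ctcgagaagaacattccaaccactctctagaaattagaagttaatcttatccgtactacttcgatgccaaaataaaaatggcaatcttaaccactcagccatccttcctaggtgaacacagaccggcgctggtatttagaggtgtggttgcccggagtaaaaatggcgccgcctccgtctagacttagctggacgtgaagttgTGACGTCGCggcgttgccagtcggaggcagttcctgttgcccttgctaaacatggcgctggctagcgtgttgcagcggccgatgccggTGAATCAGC
The windows of Psmb8 and Psmb9 held 1 match each and that of Psmb5 held 2, of which 1 was also the narrower TGACNNNGC. GAAANNGAA was in 0 of the 3 immunoproteasome windows.

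Markers of other liver cells moved in the same contrast. Of 10 macrophage and Kupffer cell markers, 8 were higher on high-fat diet averaged over treatments (limma, adjusted p under 0.05). Their median difference was 0.70, and over all genes 9.63% were called higher. Also higher were 3 of 5 other leukocyte, 5 of 6 endothelial, 3 of 5 stellate and 1 of 2 adipocyte markers. On the 9 arrays without low 18S signal the macrophage median was 0.46, and fewer macrophage, other leukocyte, endothelial and stellate markers passed. Of 9 hepatocyte markers 0 were higher and 1 was lower. Of 7 T and NK cell, 3 B cell and 3 cholangiocyte markers 0 were called. The 3 B cell and 3 cholangiocyte markers all had negative differences. At an unadjusted p under 0.05 the T and NK count was also 0, beside 17.1% of all genes higher and 13% lower. The mean of the 10 macrophage markers, relative to the 12 arrays, ran from -0.17 to 0.49 in penicillin high-fat livers, 0.29 to 0.47 in control high-fat livers, -0.85 to -0.24 in penicillin chow livers and -0.16 to 0.02 in control chow livers. The part of these cells in the level of Psmb8 was not tested. Control high-fat 3, the liver with the highest immunoproteasome mean at 0.45, was the lowest of the 3 control high-fat livers for the macrophage mean at 0.29. Of the 12 livers control high-fat 3 had the highest mean of 21 interferon-inducible genes, at 0.39. Its mean of T and NK cell markers, 0.13, was also the highest. Control chow 3 followed closely at 0.12, with an immunoproteasome mean of -0.10. The T and NK cell markers were dim, with group means of 4.76 to 6.54 beside a filter floor of 4.999. Of the 3 control high-fat livers it also had the highest mean of other leukocyte markers, at 0.26, and of endothelial markers, at 0.31.

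Among the interferon-inducible genes, 2 of 21, or 9.52%, rose on high-fat diet averaged over treatments, a share like the 9.63% of all genes. The chemokine gene Cxcl9 rose by 0.89 ± 0.21 (adjusted p = 0.0162) and Gbp3, a guanylate-binding protein gene, by 0.67 ± 0.16 (adjusted p = 0.0162). Neither was called on the 9 arrays, with 0.85 ± 0.24 for Cxcl9 (adjusted p = 0.0518) and 0.54 ± 0.20 for Gbp3 (adjusted p = 0.119). Within penicillin mice Cxcl9, Gbp3 and Ifit2, or 14.3% of the 21, were called higher on high-fat diet, beside 6.43% of all genes. Stat2, or 4.76%, was called lower, as were 261 of all 13788 genes. On the 9 arrays the differences were 1.05, 0.57, 0.48 and -0.42 in that order, and the calls were lost. Of 12 genes of MHC class I antigen processing, 0 were called in any of the 7 contrasts (limma). At an unadjusted p under 0.05 the averaged diet contrast had 1 of them higher, or 8.33%, beside 17.1% of all genes. It was H2-K1 at 0.12 ± 0.05 (adjusted p = 0.154), which encodes a class I heavy chain.

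**Figure D3:**
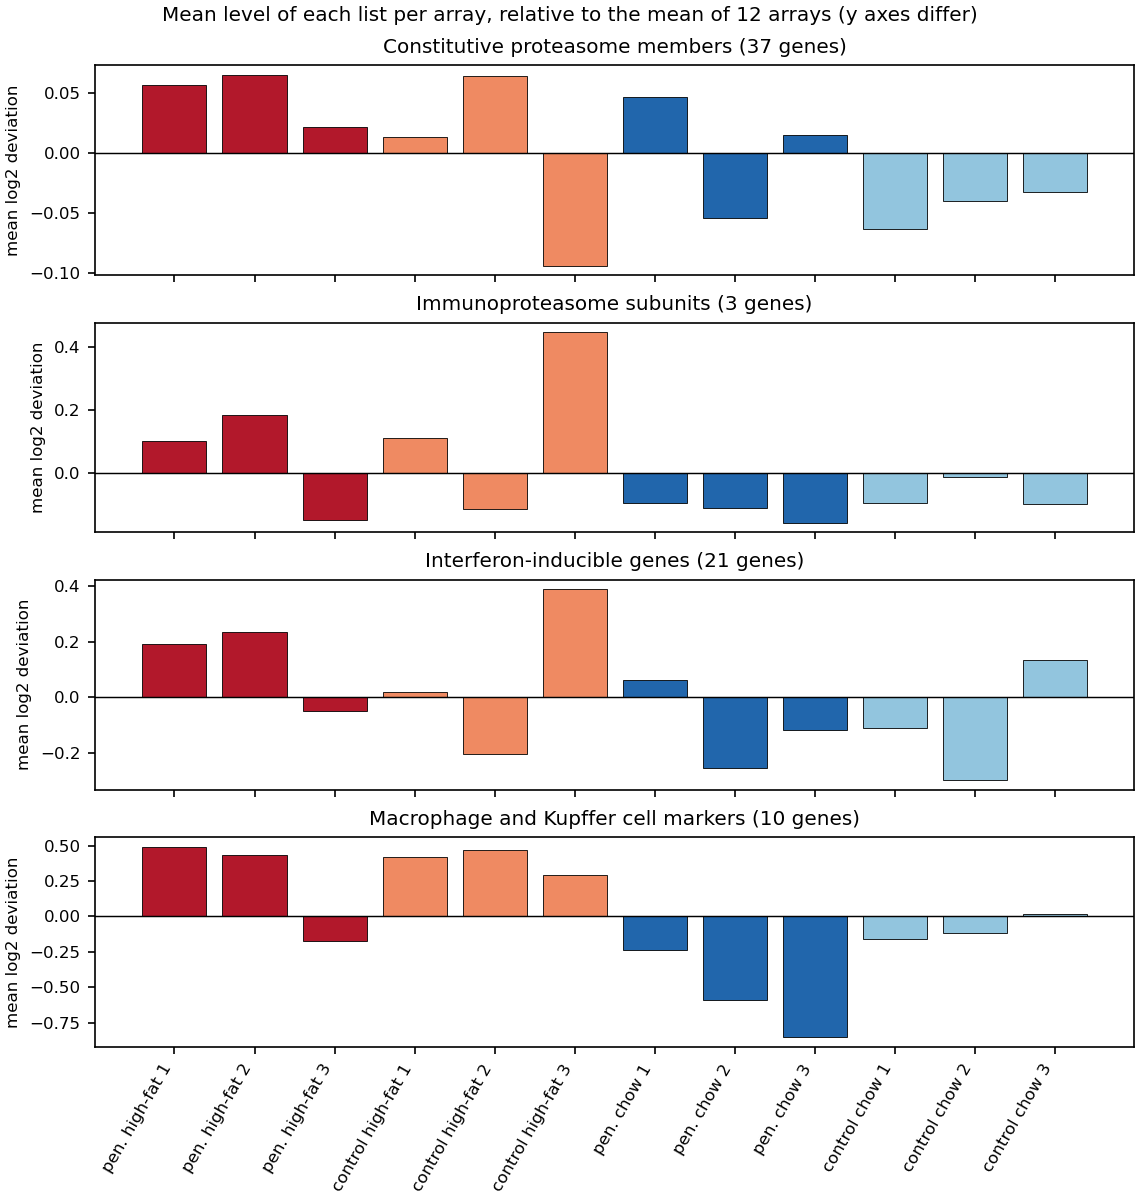
Mean log2 deviation from the 12-array mean on each array for 4 gene lists, coloured by group (pen., penicillin), with y axes that differ. Control high-fat 3 has the lowest mean of the 37 constitutive members at -0.09 and the highest of the 3 immunoproteasome subunits at 0.45 and of the interferon-inducible genes at 0.39, while macrophage markers are lowest in penicillin chow 3 at -0.85.

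Penicillin called no member. On chow, where 0.00725% of all genes were called, 0 of 43 members passed, and at an unadjusted p under 0.05 the count was also 0, beside 7.62% of all genes (limma). On high-fat diet, where 0.341% of all genes were called, 0 of 43 passed, and 3 members were higher at an unadjusted p under 0.05, beside 6.27% of all genes. Averaged over diets, where 0.145% of all genes were called, 0 of 43 passed, and again 3 were higher unadjusted, beside 6.15% of all genes. The 95% interval of the averaged penicillin difference lay within 1.5-fold for all 43 members, beside 13087 of all 13788 genes tested, and member differences ran from -0.23 for Psmb9 to 0.23 for Psmc4.

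The penicillin differences were small and mostly above 0. Averaged over diets, 32 of 37 constitutive members were above 0, with a median of 0.04, beside 48.4% of all genes and a median of -0.004. Of the 37, 30 were above 0 on the 9 arrays, with a median of 0.07, beside 47.9% of all genes. With all 12 arrays the 19S subunits had 16 of 17 above 0 and a median of 0.07, and the 20S rings 11 of 14 and a median of 0.03. On chow 31 of the 37 constitutive members were above 0, beside 47.8% of all genes, and on high-fat diet 28 were, beside 49.8%, with a median of 0.05 in each. After cyclic loess and median centring the averaged median was 0.04 and 0.05. Members vary together from mouse to mouse, as described below, so these counts are not counts of independent genes.

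Psmc4, Psmd5 and Psmb5 had the smallest p on high-fat diet and in the averaged contrast. Psmc4, whose values are given above, was higher with penicillin by 0.29 ± 0.10 on high-fat diet (adjusted p = 0.349) and by 0.23 ± 0.07 on average (adjusted p = 0.246). Its second probe set gave 0.07 ± 0.07 on average. Psmd5, a chaperone of base assembly, was 9.24, 9.14 and 9.18 in penicillin high-fat livers, 9.05, 9.05 and 8.88 in control high-fat livers, 9.13, 9.12 and 9.18 in penicillin chow livers and 9.10, 9.08 and 8.95 in control chow livers. All 6 penicillin livers lay above all 6 control livers, which 0.232% of all genes showed in this direction. The averaged difference was 0.15 ± 0.05, or 1.11-fold, and did not pass the threshold (adjusted p = 0.286 by limma). For Psmb5, the penicillin livers were above the control livers on high-fat diet without overlap, by 0.16 ± 0.07 (adjusted p = 0.430), and the averaged difference was 0.12 ± 0.05 (adjusted p = 0.355). On the 9 arrays the averaged penicillin difference was 0.17 ± 0.09 for Psmc4, 0.15 ± 0.07 for Psmd5 and 0.16 ± 0.06 for Psmb5, with adjusted p from 0.188 to 0.370. On high-fat diet Psmd5 and Psmb5 were higher and Psmc3 and Psme3ip1 lower without overlap, beside 9.5% and 7.85% of all genes.

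On chow the smallest p belonged to Psme3ip1, Psmd4 and Psmc5. Psmd4 encodes a ubiquitin receptor of the 19S cap. It was 11.43, 11.37 and 11.32 in penicillin high-fat livers, 11.37, 11.46 and 11.21 in control high-fat livers, 11.40, 11.37 and 11.42 in penicillin chow livers and 11.23, 11.27 and 11.31 in control chow livers. The chow groups did not overlap, and the difference was 0.13 ± 0.07 (adjusted p = 0.729 by limma). Psmc5, a base ATPase, was 10.66, 10.59 and 10.55 in penicillin high-fat livers, 10.56, 10.68 and 10.47 in control high-fat livers, 10.72, 10.56 and 10.60 in penicillin chow livers and 10.41, 10.56 and 10.50 in control chow livers. Its chow groups touched at 10.56 without overlap and differed by 0.14 ± 0.08 (adjusted p = 0.731). In this contrast 5 members were higher without overlap and 0 lower, beside 4.79% and 7.04% of all genes. Psme3ip1, which is not a subunit, was 8.71, 8.84 and 8.85 in penicillin high-fat livers, 8.85, 8.86 and 8.87 in control high-fat livers, 8.99, 8.84 and 9.02 in penicillin chow livers and 8.87, 8.82 and 8.76 in control chow livers. It differed by 0.13 ± 0.07 on chow (adjusted p = 0.704), with overlapping groups. Without the arrays of low 18S signal the single penicillin chow liver gave a chow difference of 0.13 ± 0.12 for Psmd4, 0.22 ± 0.11 for Psmc5 and 0.17 ± 0.10 for Psme3ip1, with adjusted p from 0.372 to 0.653.

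The immunoproteasome showed no called penicillin difference. The averaged difference was -0.23 ± 0.13 for Psmb9 (95% interval -0.52 to 0.05, adjusted p = 0.511), -0.01 ± 0.09 for Psmb8 and 0.01 ± 0.09 for Psmb10. On chow the Psmb9 difference was -0.29 ± 0.18 (adjusted p = 0.765 by limma). In that contrast all 10 macrophage markers had negative differences, with a median of -0.53 and 0 called. All 6 endothelial, 5 other leukocyte, 3 B cell and 3 cholangiocyte markers were negative too, with medians of -0.24, -0.28, -0.29 and -0.25. Negative were also 4 of 9 hepatocyte, 4 of 7 T and NK cell, 3 of 5 stellate and 1 of 2 adipocyte markers. Over all genes 7194 of 13788 differences were negative. Of the 10 macrophage markers 8 were lower at an unadjusted p under 0.05 (limma), as were 670 of all 13788 genes. The macrophage mean was -0.24 in penicillin chow 1, and -0.59 and -0.85 in penicillin chow 2 and 3, which are the arrays of low 18S signal. Without those arrays the macrophage median on chow was -0.15, with 8 of 10 markers negative. The endothelial, other leukocyte, B cell and cholangiocyte medians were then 0.08, 0.04, -0.41 and -0.11. The Psmb9 difference without arrays of low 18S signal was -0.42 ± 0.25 on chow and -0.37 ± 0.16 averaged over diets. The part of macrophages or of the other cells in the level of Psmb9 was not tested.

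The interaction, which asks whether penicillin acted differently on the 2 diets, called 0 of 43 members (limma; 0.0435% of all genes were called), and 0 at an unadjusted p under 0.05, beside 6.11% of all genes. The smallest p belonged to Psme3ip1 at -0.19 ± 0.10 (adjusted p = 0.853), Psma8 at 0.63 ± 0.36 (adjusted p = 0.866) and Psmb10 at -0.28 ± 0.17 (adjusted p = 0.874). Psma8, a subunit of germ cells, lay near the filter floor of 4.999, at 5.20, 5.86 and 5.19 in penicillin high-fat livers, 5.45, 4.70 and 4.90 in control high-fat livers, 5.36, 4.97 and 4.97 in penicillin chow livers and 5.20, 4.97 and 5.82 in control chow livers. All groups overlapped, and 5 of the 12 values were below the floor. On the 9 arrays the interaction was -0.25 ± 0.12 for Psme3ip1, 0.14 ± 0.43 for Psma8 and -0.47 ± 0.23 for Psmb10, and 0 of 43 members were called.

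The constitutive members were steady between mice. Their median within-group SD was 0.08, with a range of 0.04 for Psmc3 to 0.14 for Psme3, beside 0.13 for all genes tested and 0.11 for the 2075 genes with a mean of at least log2 10. The immunoproteasome subunits had a median SD of 0.17. Over all 12 arrays the range of a constitutive member had a median of 0.32, beside 0.49 for all genes. The narrowest was the ATPase Psmc3 at 0.13 and the widest the ATPase Psmc4 at 0.65, while Psmb9 spanned 1.17. The median SE of a difference between 2 groups was 0.08 for members and 0.10 for all genes.

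The constitutive members also varied together. After each group's mean was removed, the median Pearson correlation over the 12 arrays was 0.38 across the 666 pairs of constitutive members, beside 0.00 across all pairs of tested genes. It was 0.42 within the 20S rings and 0.46 within the 19S cap. Psma6, an alpha subunit, correlated at 0.96 with the mean of the other constitutive members and Psmd2, a scaffold subunit of the 19S cap, at 0.92. The lowest constitutive values were -0.08 for the activator Psme1 and -0.08 for the chaperone Psmd9. Control high-fat 3, with the lowest constitutive mean, carried part of this, since the median pair correlation was 0.25 without it. It was 0.30 without control high-fat 2 and ranged up to 0.45 without other single arrays. All these points share arrays and RMA normalization, so the correlations are descriptions.

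The immunoproteasome subunits did not follow the constitutive members over all 12 arrays. Psmb9 correlated at -0.67 with the constitutive mean, Psmb8 at -0.54 and Psmb10 at -0.10. Among themselves Psmb8 and Psmb10 correlated at 0.75, Psmb8 and Psmb9 at 0.64 and Psmb9 and Psmb10 at 0.49. The median correlation of constitutive with immunoproteasome members was -0.24. It was 0.06 without control high-fat 3 and -0.04 without control high-fat 2, so it rests mostly on these 2 livers of 1 group. Without any other single array it was -0.24 to -0.41. The median among the immunoproteasome subunits was 0.29 without control high-fat 3 and 0.37 without control high-fat 2, beside 0.64 with all 12 arrays. Outside the family, the genes most like the constitutive mean were Plcd3 at 0.92, Prkar1a at 0.92, Rnf144b at 0.91, Cd300c2 at 0.91 and A630023A22Rik at 0.91, over the same 12 arrays.

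**Figure D4:**
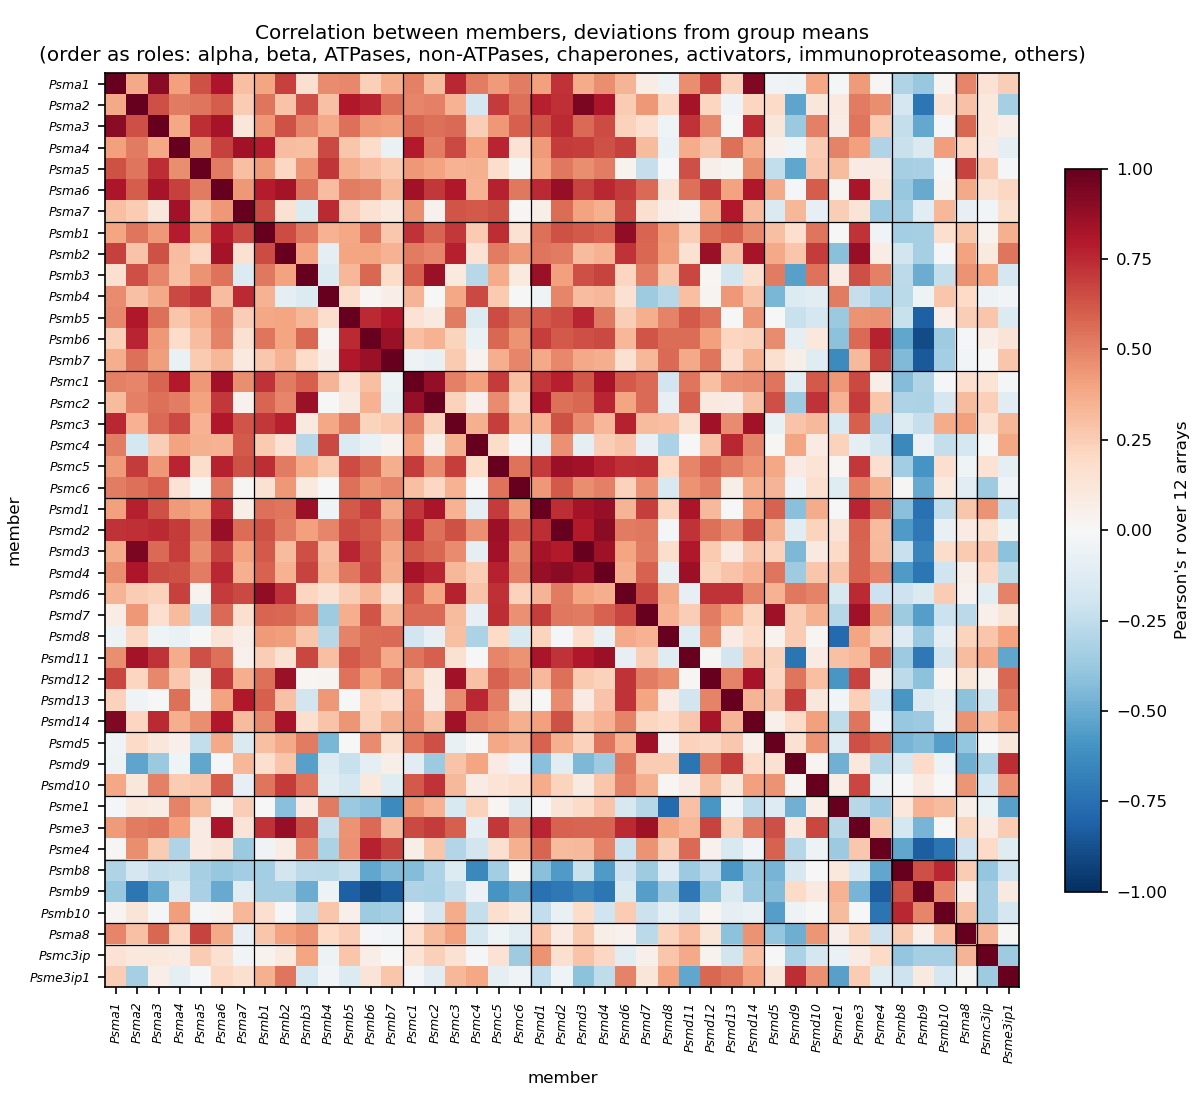
Pearson correlation over 12 arrays of deviations from group means for each pair of the 43 tested members, ordered by role with lines between roles. Constitutive members are mostly positive with each other, with a median of 0.38, and Psmb9 is negative with most of them, at -0.67 with their mean.

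Genes around the proteasome were counted in lists chosen with earlier results known. Of 17 assembly factors and partners, 1, or 5.88%, was higher on high-fat diet averaged over treatments (limma), beside 9.63% of all genes. At an unadjusted p under 0.05, 4 were higher and 1 lower, or 23.5% and 5.88%, beside 17.1% and 13% of all genes. It was Uchl5, a deubiquitinase bound to the 19S cap, which rose by 0.36 ± 0.06 (adjusted p = 0.00239) and by 0.39 ± 0.08 within penicillin mice (adjusted p = 0.0128). Its levels were 9.73, 9.69 and 9.70 in penicillin high-fat livers, 9.67, 9.59 and 9.50 in control high-fat livers, 9.17, 9.33 and 9.45 in penicillin chow livers and 9.29, 9.21 and 9.29 in control chow livers. The high-fat livers lay above the chow livers without overlap, and on the 9 arrays the difference was 0.44 ± 0.06 (adjusted p = 0.00588).

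Of 14 genes of the p97 unfoldase system and of transcriptional control, 2, or 14.3%, were higher in the averaged diet contrast, beside 9.63% of all genes. Nfe2l1, the factor that drives proteasome genes, rose by 0.33 ± 0.09 (adjusted p = 0.0256), with levels of 9.21, 8.96 and 9.20 in penicillin high-fat livers, 9.01, 9.03 and 8.82 in control high-fat livers, 8.68, 8.76 and 8.99 in penicillin chow livers and 8.76, 8.38 and 8.68 in control chow livers. These groups overlapped at 1 chow liver, penicillin chow 3. Ufd1, a cofactor that hands ubiquitinated substrates to p97, rose by 0.20 ± 0.06 (adjusted p = 0.0358), and the p97 gene Vcp differed by -0.03 ± 0.05. Nfe2l1 had 0.44 ± 0.10 on the 9 arrays (adjusted p = 0.0262) and Ufd1 0.17 ± 0.08 (adjusted p = 0.177). With all 12 arrays penicillin called 0 genes of either list on chow, on high-fat diet or averaged. In the averaged penicillin contrast 2 partners, Txnl1 at 0.31 ± 0.08 (adjusted p = 0.156) and Usp14 at 0.20 ± 0.06 (adjusted p = 0.209), and 1 gene of the p97 list, Ngly1 at 0.17 ± 0.06 (adjusted p = 0.247), had an unadjusted p under 0.05.

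All 10 ubiquitin and conjugation genes had positive averaged diet differences, with a median of 0.11, and 0 were called (limma), with 4, or 40%, higher at an unadjusted p under 0.05, beside 17.1% of all genes. Of 13 heat shock chaperones 3, or 23.1%, rose in that contrast, beside 9.63% of all genes, namely Hspa1b by 1.66 ± 0.35 (adjusted p = 0.00998), Hsph1 by 0.71 ± 0.16 and Dnajb1 by 0.77 ± 0.19. Their diet median was 0.33 within control mice, with 1, or 7.69%, called higher, beside 0.653% of all genes. Within penicillin mice it was 0.07, with 0 called, and -0.16 on the 9 arrays. The interaction was below 0 for all 13, beside 6558 of all 13788 genes, with a median of -0.26 and 0 called. Of 10 autophagy genes 1, or 10%, was lower in the averaged diet contrast, beside 4.85% of all genes, the lysosomal regulator Tfeb at -0.24 ± 0.06 (adjusted p = 0.0262). Of 13 targets of NRF2, the factor of the oxidative stress response, 2, or 15.4%, were higher in that contrast, Nqo1 by 0.35 ± 0.09 and Hmox1 by 0.73 ± 0.22. The 4 lower, or 30.8%, beside 4.85% of all genes, were Gsta2 at -1.35 ± 0.17, Gstm3 at -0.94 ± 0.14, Gsta4 at -0.41 ± 0.12 and Gstm1 at -0.24 ± 0.07. On the 9 arrays Nqo1, Gsta2 and Gstm3 kept their calls, and Hspa1b, Hsph1, Dnajb1, Tfeb, Hmox1, Gsta4 and Gstm1 did not pass, with adjusted p from 0.0651 to 0.335. Within control mice high-fat diet called 2 of the 13 NRF2 targets lower, Gsta2 and Gstm3, and 0 higher, beside 0.899% of all genes called. Within penicillin mice it called 1 higher, Nqo1, and 0 lower, beside 8.32% of all genes called. The interaction was above 0 for 12 of the 13, with a median of 0.25 and 0 called, beside 52.4% of all genes above 0. Penicillin on high-fat diet raised 2 of the 13, or 15.4%, beside 0.254% of all genes called higher. They were Gstm3 by 1.44 ± 0.19 (adjusted p = 0.00866) and Nqo1 by 0.84 ± 0.12 (adjusted p = 0.0119). All 13 had positive differences in this contrast, beside 49.8% of all genes, with a median of 0.48. At an unadjusted p under 0.05, 10, or 76.9%, were higher, beside 6.27% of all genes. Gstm3 had 1.60 ± 0.19 and Nqo1 0.93 ± 0.13 on the 9 arrays, and both passed.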

How the data were processed

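Total RNA of 12 mouse livers was measured on Affymetrix 3′ arrays, 1 array per mouse, 3 mice in each of 4 groups. The authors deposited log2 expression values for 45101 probe sets. Per the submitters' processing notes these were made by RMA with affy (version not given in the sources used here). The number of mice, not a read depth, limits the precision. By the platform annotation 34945 probe sets had 1 symbol, 932 several, 9160 none and 64 were controls, and 34741 of the first kind were found in a gene table of GRCm38.p6. Each of 18193 genes was read from its brightest probe set by mean. The filter on dim genes kept the 13788 that exceeded log2 4.999, the 40th percentile, on at least 3 arrays.

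Differences were tested with limma 3.58.1 (R 4.3.3), by a model of 4 group means with 8 residual degrees of freedom, 7 contrasts, eBayes and the Benjamini-Hochberg adjustment over all 13788 genes, called at an adjusted p under 0.05. The labels call the mice of a group biological replicates. The fit was tested on simulated data. The members and gene lists were chosen with earlier results of these data known. By the rule for named genes, values on every array are given for called members, the immunoproteasome subunits and their counterparts, Psme1 and, per contrast, the 3 members with the smallest p. Of each related list, called genes are named, with a few of small p. Correlations are Pearson's, with no p.

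The alternatives tried were no filter and a stricter one, other rules for probe sets, cyclic loess, median centring, eBayes with trend and robust variance, array weights, the 18S signal as a covariate, a replicate block, a looser threshold and leaving out each array. Replicate numbers were not taken as pairs: nothing in the labels shares them, and deviations of same-numbered arrays correlated at -0.23 to 0.17. A fit without 3 arrays of low 18S signal, also used for the gene lists, correlations without each array, and the repeats for Nfe2l1, Uchl5 and Ufd1 were chosen after seeing the data. Scan date, cage and litter were not used here.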

Additional observations from a re-analysis of the deposited data

How the results depend on the processing

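Direction held for all 3 called members in all 24 alternatives of the averaged diet contrast, but the calls of Psma3 and Psmb8 rest on thin margins. Psmd10 passed in 23 of the 24 (0.29 to 0.38), Psma3 in 7 (0.07 to 0.18) and Psmb8 in 7 (0.17 to 0.37). The count of 3 called members became 1 with no filter on low values, 1 with the mean of all probe sets, 1 after median centring, 5 with array weights, 0 without the 3 arrays of low 18S signal and 8 at an adjusted p under 0.10. With the replicate block it was 1, and the block changed the count in no other contrast, although nothing in the labels pairs the mice. Leaving out single arrays gave 1 to 5 calls: 1 without control high-fat 1, penicillin high-fat 1, penicillin chow 2, penicillin chow 3, control chow 1 or control chow 2, and 5 without penicillin chow 1. For high-fat diet in penicillin mice the count of 0 became 1 with trend and robust variance and 2 at an adjusted p under 0.10. For the other 5 contrasts it was 0 under every alternative run. With the probe set of largest SD, Psma3 in penicillin mice had -0.074, beside 0.20; that probe set is dim (log2 mean 5.83). The median pair correlation of 0.38 was 0.32 on raw values, and 0.25 to 0.45 without single arrays. Of the partners, Uchl5 passed in 24 of 24 alternatives, Nfe2l1 in 18 and Ufd1 in 10. Groups of 3 arrays limit what can be seen: the median SE of a member was 0.08 between 2 groups and 0.11 for the interaction.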
